A study of Caenorhabditis elegans with 2 samples.

Results

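Worm piRNA genes are very short genes that lie in large numbers along chromosome IV, and the regions described here are those an anti-GFP chromatin immunoprecipitation of the nuclear hormone receptor NHR-27 placed at them. A region was taken when its summit, the single base at which the authors' caller centred it, lay within 200 bp of an annotated piRNA gene and not within 500 bp of a tRNA, snoRNA or snRNA gene. Of the 30000 regions in the list called on the pooled reads, 364 had a summit within 200 bp of a piRNA gene, 9 of these were left out beside another small RNA gene, and 355 remained. Chromosome IV held 294 of them, against 13 on I, 7 on II, 7 on III, 17 on V and 17 on X. No signal value entered the choice.

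The study holds 1 group, 2 biological replicates of whole young adult Caenorhabditis elegans of strain OP208. The worms carried the integrated transgene wgIs208, which expresses an nhr-27-eGFP fusion, in an unc-119(ed3) III background, were of mixed sex, had been synchronised as starved L1 larvae after bleaching and were collected at 78 hours. Chromatin was sonicated to 200 to 800 bp and precipitated with an antibody to GFP, which recovers DNA with the tagged protein and not with the native receptor. The pooled list was deposited as peaks and background for a later filter, so a region in it need not mark a site of recovery. A strain note in the labels names NHR-270 in place of NHR-27, and which of these receptors carried the tag could not be settled from the labels. Whole worms mix germline and somatic nuclei, so few nuclei with strong recovery and many with weak recovery cannot be told apart. The promoter that drives the transgene is not given in the sources used here, no list from a control strain was used, and read depth is unknown.

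In C. elegans the piRNAs are the 21U-RNAs, small germline RNAs of fixed length that begin with uridine and are carried by the Argonaute protein PRG-1, which finds foreign or unwanted transcripts and hands them over for silencing. Each 21U-RNA is transcribed from its own tiny gene. Most of these genes sit in broad clusters on chromosome IV, in AT-rich sequence between and inside protein-coding genes, and carry an upstream motif with the core CTGTTTCA. The motif is used by a complex containing PRDE-1, SNPC-4, TOFU-4 and TOFU-5, SNPC-4 being a subunit of the small nuclear RNA activating complex that also serves snRNA genes. The piRNA genes on other chromosomes mostly lack the motif.

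All 15363 annotated piRNA genes were 21 bases long, 14714 of them lay on IV and 649 elsewhere, and 96.2% began with T. The core CTGTTTCA stood in the 60 bases before the gene, on the gene's own strand, for 34.7% of piRNA genes on IV and 6.78% of those on other chromosomes, with a median gap of 38 bases to the piRNA. Its inner 6 bases GTTTCA, every CTGTTTCA included, stood there for 64.7% on IV and 31.4% on the others. Of the 18 bins of 1 Mb along IV, 8 held at least 100 piRNA genes each and 14401 of the 14714 genes, and they are called the dense bins below.

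The following sequences are those of the piRNA genes nearest to the 6 regions of highest signal on IV, and of the one on II whose region the authors' threshold kept. They are shown so that the upstream sequence at the best regions can be read directly. Each is 81 bases on the piRNA gene's own strand, 5′ to 3′, from the RefSeq genome of WBcel235 (ce11): 60 bases before the gene and then the 21 bases of the piRNA itself. Capitals mark CTGTTTCA where it is whole and otherwise the GTTTCA nearest the gene.
21ur-14830, chrIV:15125267-15125347, plus strand: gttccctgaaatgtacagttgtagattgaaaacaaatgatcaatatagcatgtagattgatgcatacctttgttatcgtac
21ur-5, chrIV:16170350-16170430, plus strand: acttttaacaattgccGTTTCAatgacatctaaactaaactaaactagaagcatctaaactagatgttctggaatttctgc
21ur-7947, chrIV:14953753-14953833, minus strand: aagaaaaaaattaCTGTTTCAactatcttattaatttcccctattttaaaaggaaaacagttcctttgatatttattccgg
21ur-10544, chrIV:5448519-5448599, minus strand: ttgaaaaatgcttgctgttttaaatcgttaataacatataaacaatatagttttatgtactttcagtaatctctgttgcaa
21ur-3966, chrIV:14805863-14805943, minus strand: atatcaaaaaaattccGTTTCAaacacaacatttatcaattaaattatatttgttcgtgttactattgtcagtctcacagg
21ur-6491, chrIV:6021836-6021916, plus strand: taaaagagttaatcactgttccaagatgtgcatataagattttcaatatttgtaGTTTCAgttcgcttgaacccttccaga
21ur-13751, chrII:1320673-1320753, plus strand: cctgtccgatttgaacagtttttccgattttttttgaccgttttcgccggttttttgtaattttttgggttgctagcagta

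Of these, 21ur-7947 alone has the whole core, 39 bases before the piRNA, and 21ur-5, 21ur-3966 and 21ur-6491 have the inner 6 bases. In 21ur-6491 those 6 bases end at the last base before the piRNA, not at the usual distance. The genes 21ur-14830, 21ur-10544 and 21ur-13751 have neither. A match of letters is not a site of binding, and a window without one says only that these letters are not in it.

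The piRNA regions on IV were weak members of a list that was weak for most of its length. Their pooled signal, the authors' value per region on a scale the sources do not state, had a median of 36.2 (interquartile range 31.7 to 42.7) over 294 regions, against 38.4 (32.6 to 47.7) over the 4324 other regions of IV, which gives a ratio of medians of 0.942. The values overlapped over nearly all of their range, from 28.6 to 81.2 at piRNA genes and from 28.5 to 196.5 at the other regions, and the list itself, of exactly 30000 regions, ends at 28.5. The same rule applied to each replicate's own list gave medians of 21.3 at 327 piRNA regions against 22.6 at 4307 others in replicate 1, a ratio of 0.945. In replicate 2 the medians were 19.7 at 381 piRNA regions and 21.5 at 4340 others, a ratio of 0.917. The piRNA regions were thus the lower ones in both replicates, by little. The ratio is described with no test, since regions of a list are not replicates.

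Within IV the median piRNA region stood at the 42.1 percentile of signal. At or below the IV median lay 175 of the 294 (59.5%), and 13 (4.42%) were in the top 10%. In the dense bins the median was 35.5 at 265 piRNA regions against 39.1 at 1361 others, a ratio of 0.908, and it was 0.918 and 0.897 in the lists of replicates 1 and 2. GC content within 100 bp of the summit also differed there, at 35.9% for the piRNA regions and 41.6% for the others, and its part in the ratio was not tested. The 29 piRNA regions of IV outside the dense bins had a median of 40.04, against 38.1 for the 2963 other regions there. There the piRNA regions were the higher ones, in a set of 29 and untested.

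**Figure D1:**
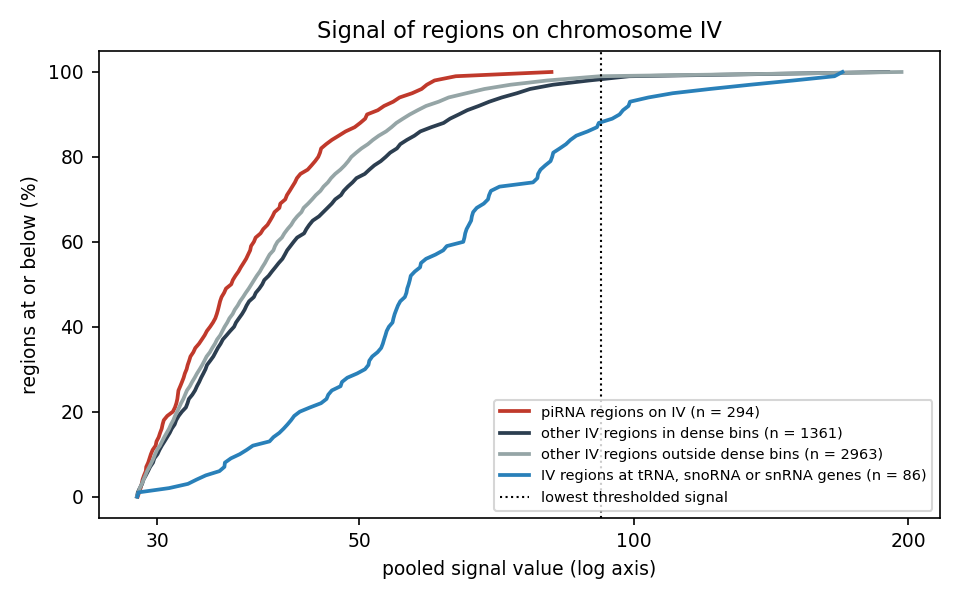
Cumulative share of regions on chromosome IV (%, y axis) against the pooled signal value (log x axis), for piRNA regions, for other regions in the dense bins and outside them, and for regions within 200 bp of tRNA, snoRNA or snRNA genes. The piRNA regions end at 81.2, left of the dotted line at 92.1, the lowest signal of a thresholded region, while the regions at the other small RNA genes reach a median of 56.6, right of the other 3 curves, and end at 169.3.

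The other small RNA genes of IV looked different. The 86 regions of IV within 200 bp of a tRNA, snoRNA or snRNA gene, counted among the other regions above, had a median signal of 56.6 (interquartile range 46.6 to 78.4), against 36.2 at piRNA genes. Of these 86, 69 (80.2%) were found in both replicate lists. The GC content within 100 bp of the summit was 35.9% ± 6.52 (SD over 294 piRNA regions) and 45.6% ± 5.81 over these 86. The part of base composition in this difference was not tested.

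The authors' thresholded set keeps the regions that passed an irreproducible discovery rate (IDR) filter, which asks whether replicates rank a region alike. It holds 393 regions, 1.31% of the pooled list, and none of lower signal than 92.1. On IV, 0 of 294 piRNA regions belonged to it, which allows a share of up to 1.02% by the rule of 3 counts, and the exact binomial 95% interval ends at 1.25%. Among the other regions of IV, 53 of 4324 belonged to it, or 1.23% (0.919 to 1.60). The share of the others lies inside the interval of the piRNA regions, and the difference itself was not tested. In the dense bins the counts were 0 of 265 piRNA regions, which allows 1.13% by the rule of 3 counts (exact upper limit 1.38%), against 24 of 1361 others (1.76%, 1.13 to 2.61), a share above both limits. Regions at tRNA, snoRNA or snRNA genes of IV belonged to the set in 10 of 86 cases (11.6%, 5.72 to 20.3). The piRNA regions leave such regions out by rule, while the others above include them, also in the dense bins. With all regions within 500 bp of such a gene left out, a wider set than the 86, 0.975% (0.701 to 1.32) of the other regions of IV belonged to the set. This is below both limits for the 294. That share is not given for the dense bins. All such intervals cover counting error only.

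Off chromosome IV, 2 of the 61 piRNA regions belonged to the thresholded set (3.28%, 0.40 to 11.3), against 338 of 25321 other regions (1.33%). Over all chromosomes the share was 2 of 355 (0.563%, 0.07 to 2.02), against 1.31% of all pooled regions.

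Both thresholded piRNA regions lay in promoter windows, which reach here from 1000 bp before to 200 bp past the 5′ end of a protein-coding transcript. The first, chrI:12652091-12652480, ranked 115 in the pooled list with a signal of 123.2, and 59.6 and 61.8 in replicates 1 and 2. Its summit lay 99 bp upstream of 21ur-12279 and in the shared promoter window of atp-1, which encodes the alpha subunit of the mitochondrial ATP synthase, and mcrs-1. A second pooled region at the same piRNA gene, chrI:12652293-12652682, overlapped it but had a signal of only 29.0, with 26.99 in replicate 2. In replicate 1 a single region of 59.6 overlapped both. The second thresholded region, chrII:1320416-1320805, ranked 313 with a signal of 97.3, and 41.8 and 55.2 in replicates 1 and 2. Its summit lay 122 bp upstream of 21ur-13751 and in the promoter window of vig-1, whose product is known from the RNA-induced silencing complex. Neither summit has CTGTTTCA within 100 bp.

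Below these, the region at 21ur-14449 on II had a pooled signal of 85.7, and 38.3 and 55.6 in replicates 1 and 2. It fell in an untranslated exon of zyg-11, which encodes a substrate-recognition subunit of a ubiquitin ligase. The summit was 19 bp upstream of the piRNA gene.

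On IV the highest region, chrIV:15124975-15125364, ranked 663 of 30000. Its signal was 81.2 in the pooled list, 41.4 in replicate 1 and 39.6 in replicate 2, close to each other. The summit lay 157 bp upstream of 21ur-14830, in an intron of the C-type lectin gene clec-190. The next, chrIV:16170044-16170433, had 70.1 in the pooled list, 36.3 in replicate 1 and 54.3 in replicate 2, and lay in an intron of gln-3, a glutamine synthetase gene, 171 bp upstream of 21ur-5. Here replicate 2 was the higher one. The same replicate 1 region also overlapped a second pooled region at 21ur-5, of signal 45.4.

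The region chrIV:14953539-14953928 at 21ur-7947 had 63.9 in the pooled list, 29.1 in replicate 1 and 37.3 in replicate 2. It had 4 piRNA genes within 200 bp of the summit and the whole core within 100 bp. The same replicate 2 region also overlapped the neighbouring pooled region at 21ur-12750, of signal 46.7. The region at 21ur-10544, chrIV:5448201-5448590, had 63.8 in the pooled list but 18.1 in replicate 1 and 46.3 in replicate 2. It lay in a coding exon of mgl-3, a metabotropic glutamate receptor gene, and its summit too had the whole core within 100 bp. That at 21ur-3966, chrIV:14805658-14806047, had 62.7 in the pooled list and 38.3 in replicate 1, and no region of replicate 2 overlapped it. The region at 21ur-6491, chrIV:6021631-6022020, in an intron of pqn-22, had 62.3 in the pooled list, 31.4 in replicate 1 and 28.3 in replicate 2, so its replicates were close.

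The other 11 of the 20 highest piRNA regions had pooled signals from 57.8 to 69.7. They were those nearest 21ur-12977 (an intron of fcp-1, a phosphatase of the RNA polymerase II tail), 21ur-13424 (promoter of sem-5, the worm GRB2 adaptor), 21ur-5848, 21ur-4387, 21ur-15173, 21ur-5656, 21ur-15588 (a coding exon of sec-61.B, of the protein translocon), 21ur-14644, 21ur-14060 (promoter of aagr-1, an acid alpha-glucosidase gene), 21ur-14330 (a coding exon of cpr-4, a cathepsin B-like protease gene) and 21ur-6997. All 11 were found in both replicate lists. At 21ur-15173 and 21ur-15588 the same replicate regions also overlapped a second pooled region, of signal 41.0 and 29.2. Of the 20 highest, 14 lay on IV, and 3 of those 14 lay outside any annotated protein-coding gene and promoter window.

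The extremes of replicate ratio show how far single regions can move. Among piRNA regions found in both lists, the lowest ratios of replicate 1 to replicate 2 were 0.39 at 21ur-10544, given above, and 0.43 at 21ur-14659, which had 22.3 in replicate 1 and 52.3 in replicate 2 and lies in an intron of gstk-2, a glutathione S-transferase gene. The highest were 2.21 at the second 21ur-12279 region, where 1 replicate region stands for both pooled ones, and 1.91 at 21ur-4387, with 37.4 in replicate 1 and 19.5 in replicate 2.

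Members close to the 200 bp limit, and regions that just missed it, were as follows. Inside the limit, the 3 of highest signal among those at 199 bp had pooled signals of 49.8 (21ur-12188), 38.7 (21ur-13859) and 36.9 (21ur-4376). Others at that distance were lower, with 32.6 at 21ur-11313. Just outside the limit, 3 regions had 33.2 (21ur-1380, 201 bp), 28.5 (21ur-13854, 201 bp) and 48.2 (21ur-2819, 203 bp).

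Recovery in the replicates was lower at piRNA genes of IV than at the other regions of IV. A pooled region counted as found in a replicate when at least 1 bp overlapped a region of that replicate's list. Both lists held 114 of 294 piRNA regions (38.8%, 33.2 to 44.6), against 2099 of 4324 others (48.5%, 47.0 to 50.04) and 47.8% of all pooled regions. The intervals do not overlap, and they treat regions as independent. In the dense bins both lists held 98 of 265 piRNA regions (37.0%) and 681 of 1361 others (50.04%). Outside the dense bins the order was the other way, with 16 of 29 piRNA regions (55.2%, 35.7 to 73.6) and 47.9% of the 2963 others in both lists.

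The shortfall was alike in the replicates. Replicate 1 alone held 84 piRNA regions (28.6%), against 23.1% of the other IV regions, and replicate 2 alone held 83 (28.2%), against 23.4%. Neither list held 13 (4.42%), against 4.90%. Off IV, both lists held 29 of 61 piRNA regions (47.5%, 34.6 to 60.7), against 47.7% of the 25321 other regions there, a share inside that interval. Whether IV and the other chromosomes differ was not tested.

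Where both lists held a piRNA region of IV, the signals were of similar size but hardly ordered. The median was 23.1 in replicate 1 and 22.0 in replicate 2 over 114 regions, against 24.9 and 23.8 over the other 2099. The signals were within 1.5-fold of each other at 87 of the 114 (76.3%), against 74.0% of the others. Spearman's rho between replicates was 0.06 over the 114, against 0.22 over the 2099 and 0.40 over the 29 piRNA regions off IV. These are descriptions across regions that share their libraries and, for some, overlap.

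**Figure D2:**
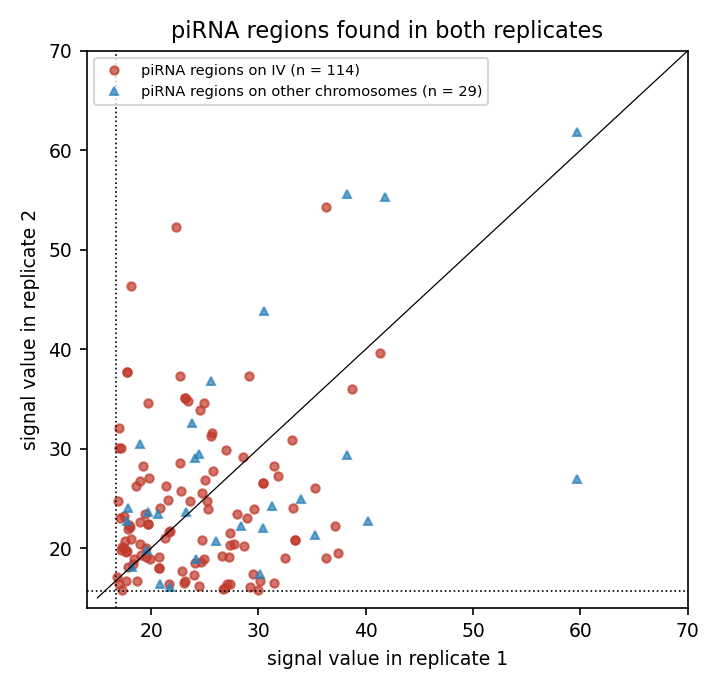
Signal value in replicate 2 (y axis) against replicate 1 (x axis) for the 114 piRNA regions on IV and the 29 on other chromosomes found in both lists. Dotted lines mark the lowest signal of each list (16.8 and 15.7) and the solid line equality; most points sit in the corner near both limits, and the point near 60 on both axes is the thresholded region at 21ur-12279.

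Signal and recovery moved with base composition, which differs between the groups. The GC content within 100 bp of the summit was 35.9% ± 6.52 at piRNA regions of IV and 41.0% ± 7.19 at the other regions (SD over 294 and 4324 regions). When the regions of IV were split into 3 GC classes of about equal size, with limits at 37.3% and 43.3%, the ratio of median signals was 0.946 in the lowest class (34.4 at 181 piRNA regions, 36.4 at 1405 others), 0.993 in the middle (38.2 at 77, 38.5 at 1445) and 0.995 in the highest (40.5 at 36, 40.8 at 1474). Both replicate lists held 35.4%, 41.6% and 50% of piRNA regions in these classes, against 43.9%, 46.6% and 54.9% of the others. The exact intervals overlap in each class, at 28.4 to 42.8% for piRNA regions against 41.3 to 46.6% for others in the lowest, 30.4 to 53.4% against 44.0 to 49.2% in the middle and 32.9 to 67.1% against 52.3 to 57.4% in the highest. In the lowest class the share of the others, 43.9%, lies above the interval of the piRNA regions, and in the middle and highest classes it lies inside. The ratio of signals was furthest from 1 in the AT-rich class, which holds 181 of the 294. The differences in recovery within the classes were not tested. The split was made after the values were seen.

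Regions were placed at piRNA genes less often than in the rest of IV. The bases within 200 bp of a piRNA gene, and away from tRNA, snoRNA and snRNA genes, make up 17.3% of IV but held 6.37% (5.68 to 7.11) of its 4618 summits. This is 97.0 summits per Mb at piRNA genes against 299.0 per Mb in the rest of IV. In the list of replicate 1 the densities were 107.9 per Mb at piRNA genes and 297.8 elsewhere, and in that of replicate 2 they were 125.7 at piRNA genes and 300.1 elsewhere. In the dense bins they were 91.2 per Mb at piRNA genes and 296.7 per Mb elsewhere. Off IV there were 232.1 summits per Mb at piRNA genes against 306.9 elsewhere, with 266.3 against 306.6 in replicate 1 and 224.4 against 305.6 in replicate 2.

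Base composition moved with this contrast too, in GC bands that were likewise set after the values were seen. Windows of 201 bp tiled every 200 bp along IV averaged 29.7% GC within reach of piRNA genes and 35.6% elsewhere, and summits were fewer in AT-rich windows of both kinds. Among windows under 30% GC there were 38.1 summits per Mb (29.6 to 48.2, exact Poisson) at piRNA genes and 87.6 (77.8 to 98.2) elsewhere. From 30 to 35% GC there were 104.9 (82.8 to 131.1) at piRNA genes and 187.0 (173.6 to 201.2) elsewhere. From 35 to 40% there were 253.0 (201.6 to 313.7) at piRNA genes and 310.0 (291.9 to 328.8) elsewhere, with overlapping intervals. From 40% up there were 397.2 (305.2 to 508.2) at piRNA genes and 590.9 (566.6 to 616.1) elsewhere. In the pooled list the intervals were apart in 3 of the 4 bands. In each replicate list they were apart in the 2 bands below 35% GC only, and from 40% up they overlapped, at 327.4 to 536.5 at piRNA genes against 521.9 to 569.5 elsewhere in replicate 1 and 349.6 to 564.7 against 530.5 to 578.5 in replicate 2. The part of base composition in the contrast was not tested further. How well reads map to these clusters was not tested.

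**Figure D3:**
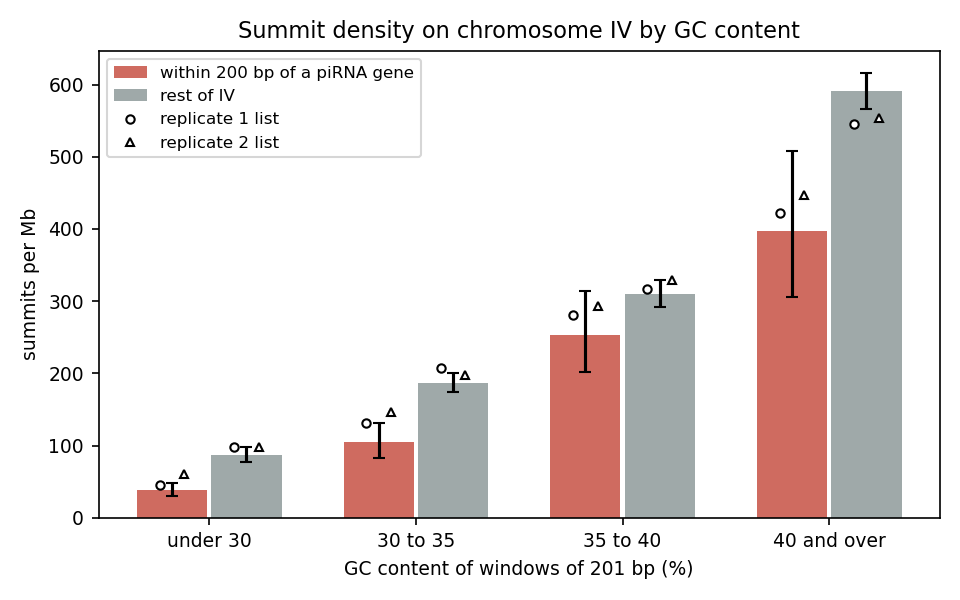
Summits per Mb on chromosome IV (y axis) in 201 bp windows grouped by GC content (x axis), within 200 bp of piRNA genes and in the rest of IV. Bars are the pooled list with exact Poisson 95% intervals and open symbols the 2 replicate lists; density rises with GC in both kinds of window, and the piRNA bar is the lower one in every band, with overlapping intervals at 35 to 40%.

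Along the chromosome the same contrast showed bin by bin. The 10 bins with fewer than 100 piRNA genes held 269 to 340 regions per Mb. The 3 bins with the most piRNA genes, 3519, 3476 and 2950, held 122, 188 and 127 regions per Mb. The bin with 279 piRNA genes, the fewest of the dense ones, held 335. Median signal did not follow, being 36.6 to 39.7 in the 8 dense bins and 36.6 to 39.7 in the other 10. Bin GC content was 31.7 to 36.6% in the dense bins and 34.4 to 36.6% in the others.

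**Figure D4:**
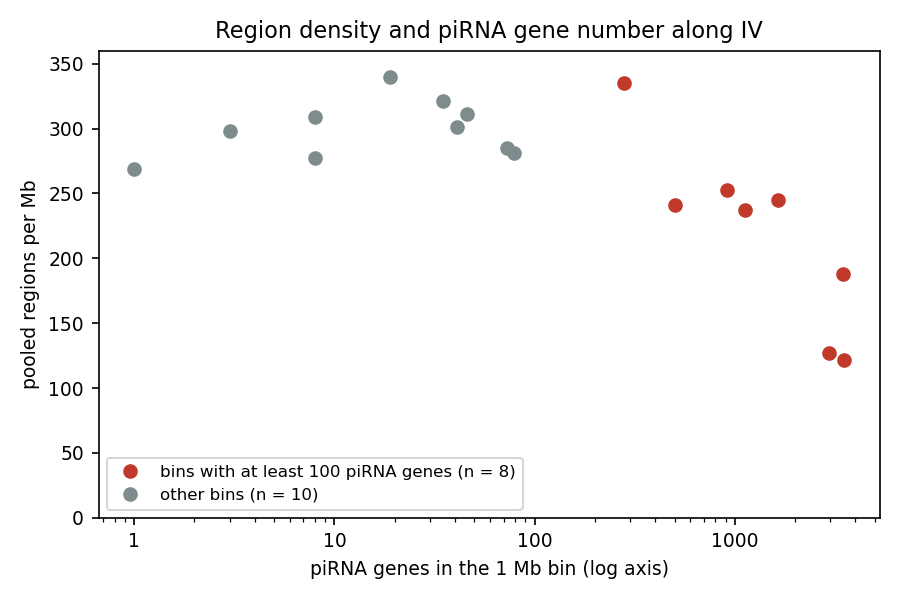
Pooled regions per Mb (y axis) against the number of piRNA genes (log x axis) in each of the 18 bins of 1 Mb along IV, with the 8 dense bins coloured. Bins with few piRNA genes lie between 269 and 340 regions per Mb and the 3 bins with the most lie between 122 and 188.

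Seen from the piRNA genes, few had a region. A piRNA region's summit lay within 200 bp of 461 of the 14714 piRNA genes on IV (3.13%) and of 59 of the 649 on other chromosomes (9.09%). In the list of replicate 1 the share was 3.62% on IV and 10.6% on other chromosomes, and in that of replicate 2 it was 4.44% on IV and 8.47% on others. In both replicate lists at once it was 0.85% on IV (125 genes) and 3.24% on others (21 genes). On IV there were 50.05 annotated piRNA genes for each piRNA region. The upstream core stood before 36.4% of the 461 genes of IV with a region (32.0 to 41.0) and before 34.6% of the 14253 without one, and GTTTCA before 70.3% of those with a region (65.9 to 74.4) and 64.5% of those without.

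The summits did not gather on the piRNA genes or on the bases before them. Of the 294 on IV, 119 lay upstream of the nearest piRNA gene (40.5%, 34.8 to 46.3), 20 inside its 21 bases (6.80%) and 155 downstream (52.7%, 46.8 to 58.5). Windows of IV within the same reach were centred upstream in 46.7%, inside in 7.97% and downstream in 45.3%. In the stretch 1 to 60 bases upstream, where the motif lies, there were 45 summits (15.3%, 11.4 to 19.9), against 20.4% of windows. Within 50 bp of a piRNA gene there were 88 (29.9%, 24.8 to 35.5), against 41.9% of windows. These windows were not matched to the summits on GC content. Off IV, 30 of 61 summits were upstream, 2 inside and 29 downstream.

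**Figure D5:**
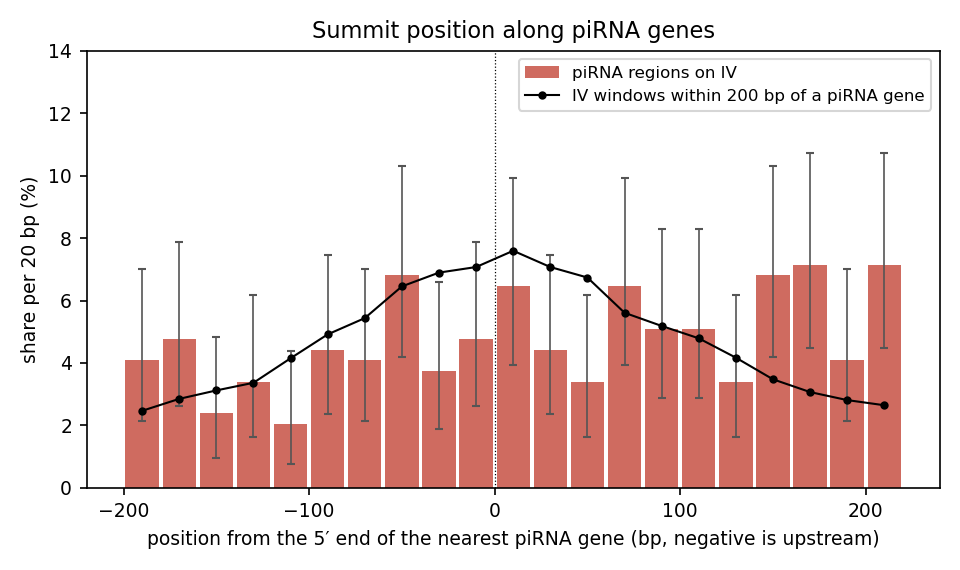
Share of piRNA region summits on IV per 20 bp (bars, %, y axis, with exact binomial 95% intervals) by position from the 5′ end of the nearest piRNA gene (x axis, bp), and the share of IV windows in the same reach (black line). No bar from −60 to 0 bp, where the motif lies, has an interval wholly above the line, and the outermost bars on both sides sit above it.

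Nor did signal climb towards the piRNA gene. The median was 38.2 for the 20 regions with the summit inside a piRNA gene, 34.7 for the 68 at 1 to 50 bp, 35.8 for the 74 at 51 to 100 bp, 36.5 for the 58 at 101 to 150 bp and 36.0 for the 74 at 151 to 200 bp. The interquartile ranges of these sets overlap. More piRNA genes around a summit did not go with more signal either, with medians of 37.0 at 188 regions near 1 piRNA gene, 35.1 at 61 near 2, 36.5 at 24 near 3 and 33.6 at 21 near 4 to 6.

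The core motif was frequent in these regions, as it is in the sequence around them. CTGTTTCA on either strand within 100 bp of the summit was found in 58 of 294 piRNA regions of IV (19.7%, 15.3 to 24.7), against 50 of 4324 other regions of IV (1.16%) and 1.37% of all pooled regions. Windows of the same length within reach of piRNA genes on IV held it in 26.8% of 15158 cases, and the rest of IV in 1.81% of 72310. Those windows are more AT-rich than the regions, at 29.7% GC against 35.9%, and their share with the core fell with GC, from 32.0% of windows under 30% GC through 23.8% at 30 to 35% and 13.7% at 35 to 40% to 8.20% from 40% up. The share of the regions, 19.7%, lies within that span, and regions and windows of like GC were not compared. GTTTCA gave 142 of 294 piRNA regions (48.3%), against 16.3% of the other regions, with 57.5% of windows in reach, of all GC contents, and 20.2% elsewhere. Off IV, 3 of 61 piRNA regions held the core (4.92%), against 1.18% of the other regions there.

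Regions with the core were not the stronger ones. The 58 with it had a median signal of 34.2 and were in both replicate lists in 25.9% of cases, against 36.7 and 41.9% for the 236 without it. Their GC content was 32.2%, against 36.8%, and its part in this was not tested. By the nearest piRNA gene's own upstream sequence, the 101 regions whose gene has the core had a median of 35.5 and the 193 others 36.3.

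Around protein-coding genes the piRNA regions were placed differently from the others. On IV, 66 lay in promoter windows (22.4%), 59 in coding exons (20.1%), 9 in untranslated exons (3.06%), 68 in introns (23.1%) and 92 outside all of these (31.3%, 26.0 to 36.9). Among the other IV regions the shares were 32.1%, 28.1%, 2.87%, 19.2% and 17.7%. The weakest were those outside protein-coding genes, with a median of 34.03 against 37.8 for other regions outside genes, and 25 of the 92 in both replicate lists (27.2%), against 47.9%. In the other classes both lists held 45.5% of piRNA regions against 51.5% of others in promoter windows, 39.7% against 45.5% in introns and, the other way, 50.8% against 46.7% in coding exons, with overlapping intervals in these 3. The median in promoter windows was 37.5 at piRNA regions and 38.9 at others. It was 37.3 at piRNA regions and 38.4 at others in coding exons, and 36.0 at piRNA regions and 37.9 at others in introns. The ratio of medians was 0.899 outside genes, 0.963 in promoters, 0.972 in coding exons and 0.949 in introns. Outside genes GC content was 34.7% at piRNA regions and 40.7% at others, and its part was not tested. The class shares were not compared with those of all sequence within reach of piRNA genes, so the part of where these genes lie was not tested.

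The protein-coding genes of the piRNA pathway were looked up by the same promoter window. Of 29 listed names 27 were matched in the annotation, all but prg-2 and wago-3 of the silencing list. A pooled summit lay in the window of 9 of the 27 (33.3%), against 36.4% of 19985 protein-coding genes, and a thresholded one in that of 1 (3.70%), against 1.01%. None of the 7 genes for transcription of piRNA genes had one (prde-1, snpc-4, tofu-4, tofu-5, snpc-1.3, unc-130 and uad-2). Of the 10 genes for processing of precursors, 3 did, and tofu-6, pid-1, pid-3, erh-2, tofu-2, slfl-3 and parn-1 did not. The signals there were 31.2 at ife-3, a cap-binding protein gene, 45.9 at tofu-1, and 31.8 at henn-1, whose product methylates the 3′ end of piRNAs. The region at ife-3 was found in replicate 1 only and that at henn-1 in replicate 2 only.

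Of the 10 matched genes for silencing, 6 had a summit. The highest was ego-1, an RNA-dependent RNA polymerase of the germline, with 116.3 in the pooled list, 46.9 in replicate 1 and 79.6 in replicate 2, and this region was thresholded. Its neighbour rrf-1, another such polymerase, had 75.9 in the pooled list, 40.3 in replicate 1 and 33.9 in replicate 2. The Argonaute genes wago-4 and hrde-1 had 67.2 and 39.2, the helicase gene znfx-1 37.7, and pid-2 64.9. In replicates 1 and 2 the values were 46.5 and 16.9 at wago-4, 17.3 and 16.2 at znfx-1, and 26.7 and 41.7 at pid-2. The hrde-1 region was found in replicate 2 only, with 22.8. No summit lay in the window of prg-1, the piRNA Argonaute itself, nor in those of wago-1, mut-16 and mut-7.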

How the data were processed

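The authors called regions on each replicate and on the pooled reads of both, against a control alignment and on assembly ce11 (WBcel235), and kept an IDR-thresholded set, per the file headers and notes deposited with them. How the reads were aligned, which peak caller and IDR threshold were used, and with which settings, is not given in the sources used here. For the deposited signal values no scale is stated, and they were compared only within a list. The deposited −log10 q value was not used for ranking, and the deposited summit offset gave each summit. Replicates and their numbers are those of the labels.

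Regions were joined to Ensembl release 115 genes and to the RefSeq genome of the same build with Python 3.11.15, pandas 2.3.3, NumPy 2.4.6, SciPy 1.17.1 and matplotlib 3.10.9. Shares carry exact binomial intervals and densities exact Poisson intervals at 95%. No test was run, since there is 1 group. Regions are not replicates, neighbours can overlap (24 of the piRNA regions on IV overlap another, and 10 share their nearest piRNA gene), and nothing is called particular to them. The members, lists and motif were chosen with earlier results of these data known. Named regions were the 20 highest by pooled signal and those overlapping a thresholded region. The 2 highest and 2 lowest replicate ratios among regions in both lists were added. So were 3 regions on each side of the 200 bp limit, members tied in distance being taken by signal. The piRNA pathway lists were named whole. The steps were tested on simulated data. The alternatives left out a replicate or moved the distance to a piRNA gene, the overlap rule or the motif window. Others dropped the rule on other small RNA genes, changed the comparison regions or took a stricter thresholded set. The promoter window, the upstream stretch and the limits of the dense bins were not varied.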

Additional observations from a re-analysis of the deposited data

How the results depend on the processing

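In all, 8 results were recomputed under up to 13 alternatives each. The ratio of median signal, 0.942 as reported, was 0.917 to 0.945 with a replicate left out. It reached 1.001 with the summit inside the piRNA gene (20 regions), and 0.993 and 0.995 in the middle and highest of 3 GC classes, a split chosen after seeing the data. The number of piRNA regions on IV, 294, was 327 to 381 in single lists, 162 at 100 bp, 515 at 500 bp and 20 inside the gene. No alternative placed a piRNA region of IV in the thresholded set. The share for the other regions of IV, 1.23%, was 1.76% in the dense bins and 0.975% over 500 bp from a tRNA, snoRNA or snRNA gene. It was 0.601% with the upper 50% of the thresholded set by signal and 1.4977 to 1.51% in single lists. The values for the upper 50% and the single lists count any overlap with a thresholded region, and the 1.23% counts identity only. By overlap 509 pooled regions count, against 393 by identity. The share of piRNA regions in both lists, 38.8%, was 67.0 to 67.3% in a single list, 30% inside the gene, 30.6% with 50% of each region shared, 19.7% with summits within 100 bp and 50% in the highest GC class. For the other regions of IV, 48.5%, the values were 71.7 to 71.9%, 38.1% with 50% shared, 27.01% by summits, and 43.9, 46.6 and 54.9% in the GC classes from low to high. The share of piRNA regions with the core, 19.7%, was 20.997 to 22.3% in single lists, 30.2% at 100 bp, 12.8% at 500 bp, 35% inside the gene, and 10.9 and 37.4% with 50 and 200 bp windows. For the other regions, 1.16%, it was 1.27 to 1.44%, 2.20% with only summits inside piRNA genes taken out, and 0.648 and 2.89% with those windows. Where the alternative's own construction does not show the cause, the cause was not tested.

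No paired analysis was possible because the study has 1 group and no comparison between conditions. The limits are 2 replicates, unknown read depth, no control list, and lists of exactly 30000 regions, whose lowest signals the piRNA regions lie close to. How well reads map to the piRNA clusters was not tested.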

Other observations

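CTGTTTCA also stood within 100 bp of the summit of 50 of the 4324 other regions of IV, those that the rule did not take as piRNA regions. Their median signal was 37.6, against 34.2 for the 58 piRNA regions with it, and 24 of the 50 (48%) were in both replicate lists. The thresholded set held 2 of them. Of the 9 regions near a piRNA gene that were left out because a tRNA, snoRNA or snRNA gene was also near, 5 lay on IV and 1 of the 9 overlapped a thresholded region.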
